A study of Drosophila melanogaster with 36 samples.

Results

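The 39 genes described here encode the proteins that carry out and steer pre-mRNA splicing in *Drosophila melanogaster*: SR proteins, hnRNPs and related RNA-binding regulators, and proteins of the U1, U2 and U5 particles with their Sm rings. They were taken from a list of 40 gene ids, chosen by function but with earlier results of these data known, of which 39 were matched among the 14010 genes of the table. For each gene the transcript row with the most reads was kept, and all 39 passed the filter on low counts that left 8792 genes for testing. The remaining id, CG42670 (pasilla, ps), was not matched. RefSeq gives 2 older ids of ps, and the row of one of them is described apart from the 39. RNA came from heads of wild-type Canton-S flies entrained to 12:12 light-dark cycles in the cold (18°C), at an intermediate 25°C or in the warm (29°C), with 6 collections per temperature by zeitgeber time (ZT3, ZT7, ZT11, ZT15, ZT19, ZT23). All groups shared this strain and carried no transgene, and entrainment lasted at least 3 days. Crosses were raised at the intermediate temperature and young adults were then kept there or moved, as the methods describe for transgenic lines. Whether this held for the wild-type flies, and their age, are not given in the sources used here. The question addressed by the series was how temperature changes gene expression and splicing in the fly head, and for these genes it becomes whether the mRNAs of the splicing machinery itself differ between temperatures or over the day. The 3′ RNA-seq used here counts mRNA 3′ ends, so it measures the level of each mRNA and not how it was spliced.

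Introns are recognised in steps. The U1 particle binds the 5′ splice site, the U2AF proteins and the U2 particle mark the 3′ splice site and the branch point, and the U4, U5 and U6 particles then join so that the catalytic centre can form around Prp8. A ring of Sm proteins is the common core of most of these particles. SR proteins generally favour the use of nearby splice sites, whereas hnRNPs often oppose it, so the balance between both kinds of protein is known to set alternative splicing. In the fly clock, B52 is known as a regulator of a thermosensitive intron of *per*, and Psi as a regulator of *tim* splicing.

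Each of the 18 columns of the table stands for 1 temperature and time point, with 736543 to 2750249 reads on genes. The labels name 36 libraries, 2 per group, but the table holds 1 column per group, so the spread was taken over the 6 time points and p-values measure only the variation between these columns. The 39 genes held 0.103% to 0.131% of the reads of a column, with means of 0.119% ± 0.00684 (SD, n = 6) in the 18°C columns, 0.118% ± 0.00697 in those at 25°C and 0.116% ± 0.0100 in those at 29°C. Per gene, the reads over all columns ran from 154 for snRNP-U1-70K to 2339 for snf, with a median of 764. Head markers were abundant: the 7 photoreceptor genes summed to a normalised read signal of at least 27179 in every column. Markers of other cells stood out in 2 columns. The 29°C ZT19 column held a testis marker sum of 225 over 11 genes, against at most 11.2 in any column at 18°C or 25°C. It also held an accessory gland sum of 385 over 8 genes and a midgut sum of 851 over 6 genes. The median midgut sum at 29°C was 10.96. The 25°C ZT7 column held sums of 2896 for the 6 midgut genes and 3636 for 5 flight muscle genes. The 4 glial markers summed to 250 to 290 at 29°C, below 384 to 449 at 25°C and 378 to 516 at 18°C, and the photoreceptor sum ran from 27179 to 32979 in the cold, 32747 to 44160 at 25°C and 36848 to 48010 in the warm. In RNA from whole heads, fewer cells of a type and less RNA per cell cannot be told apart, and the part of these shifts in the results below was not tested.

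Temperature differences were tested on log2(signal + 1) with limma over all 8792 genes, with time point as a factor and Benjamini-Hochberg adjustment. The cold comparison set 18°C against 25°C, the warm comparison 29°C against 25°C, and the full-range comparison 18°C against 29°C, and a positive log2 change means a higher level at the temperature named first. In the cold comparison, 7 of the 39 genes passed an adjusted p of 0.05, where 13.4% of all genes tested did, with 4 higher at 18°C (8.08% of all genes) and 3 lower (5.32%). In the warm comparison, 9 genes passed, against 17.3% of all genes, with 6 higher at 29°C (10.6%) and 3 lower (6.71%). In the full-range comparison, 10 passed, against 27.9% of all genes, with 4 higher at 18°C (13.3%) and 6 lower (14.6%). In total 15 of the 39 (38.5%) passed in at least 1 of the 3 comparisons, beside 36.5% of all genes, so the share of splicing genes that differed was close to the background. Their median log2 changes were 0.10, 0.11 and 0.04 over the 3 comparisons, where the medians of all genes were -0.01, 0.04 and -0.06. Scaling by library size moved the medians of all genes to -0.14, -0.13 and -0.01. Under that scaling the split of the splicing genes became 1 higher and 4 lower in the cold comparison and 2 higher and 3 lower in the warm comparison. It stayed near the main one in the full-range comparison, at 5 higher and 6 lower. The split of all genes tested moved from 710 higher and 468 lower to 450 higher and 855 lower in the cold comparison. In the warm comparison it moved from 930 higher and 590 lower to 491 higher and 1090 lower. In the full-range comparison it moved from 1166 higher and 1288 lower to 1275 higher and 1114 lower. The comparisons share columns, so a gene far from the others at one temperature enters 2 of them. The standard error of a log2 change ranged from 0.12 for the genes with most reads to 0.51, with a median of 0.22. A change well above its standard error could still fail to pass, as for heph in the cold comparison (0.79 ± 0.36, adjusted p = 0.152). A gene that did not pass may therefore still differ, above all among the rarer mRNAs.

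**Figure D1:**
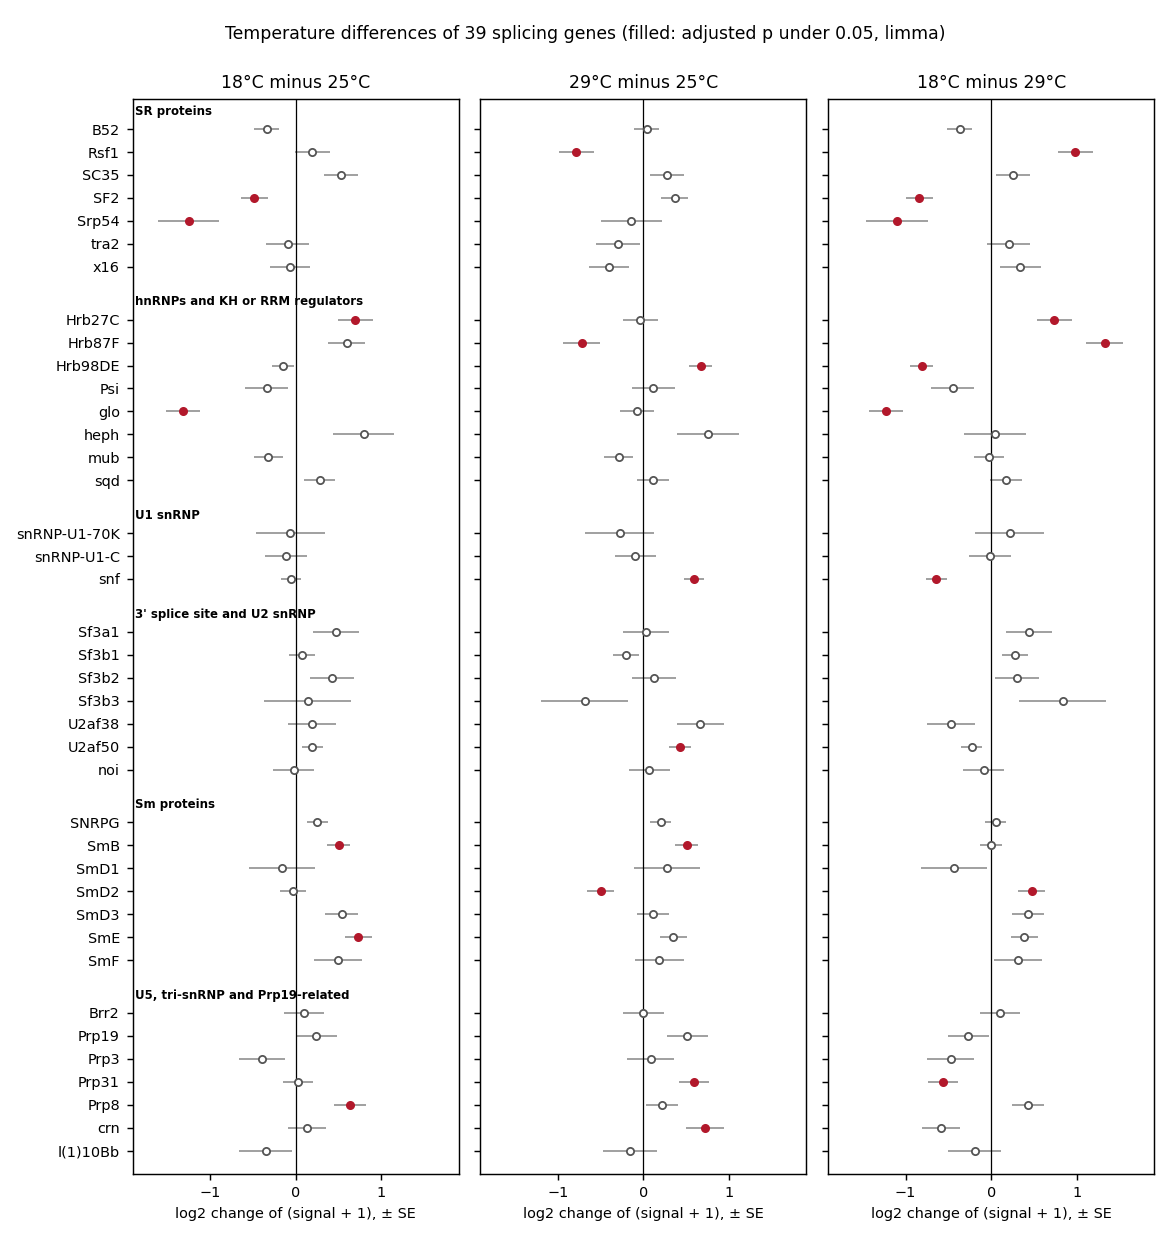
Log2 change of (signal + 1) between temperatures for the 39 genes, grouped by class, with the standard error from limma over 18 columns as bars. Filled points passed an adjusted p of 0.05 (7, 9 and 10 genes), and within the SR and hnRNP classes filled points lie on both sides of 0.

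Among the 7 SR proteins, 2 fell at 18°C relative to 25°C, 1 fell at 29°C relative to 25°C, and 3 passed in the full-range comparison, SF2 and Srp54 lower and Rsf1 higher at 18°C. Of all genes tested, 13.4%, 17.3% and 27.9% passed in either direction in the cold, warm and full-range comparisons. The class counts here and below rest on 3 to 8 genes each, and their distance from these shares was not tested. SF2 (CG6987; 3R, 12165849 to 12167706), the fly counterpart of the splicing activator ASF/SF2, had a normalised read signal of 39.96 at its lowest time point, 46.7 at the median and 56.7 at the highest at 18°C, then 48.8, 67.9 and 84.4 at 25°C, and 75.8, 82.9 and 100.4 at 29°C. Its columns at 18°C all lay below those at 29°C, with the 25°C columns overlapping both. The log2 change was -0.84 ± 0.16 (SE) in the full-range comparison (adjusted p = 0.000219), a call kept without any one of the 18 columns. Against 25°C in the cold it was -0.48 ± 0.16 (adjusted p = 0.0433), and this call was lost without any one of 10 columns (18°C ZT3, ZT7, ZT15, ZT19 or ZT23, or 25°C ZT3, ZT7, ZT15, ZT19 or ZT23), with an adjusted p of up to 0.144. The warm comparison gave a difference of 0.36 ± 0.16 that did not pass (adjusted p = 0.122). In dm6 annotation exons of Sulf1 overlap the 3′ end of SF2 on the same strand, so reads of both genes cannot be told apart there, which also bears on ratios with SF2.

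Rsf1 (CG5655; 2L, 10262426 to 10263582), known in flies as an antagonist of SR proteins, ran the other way. Its lowest, median and highest signals were 59.9, 77.8 and 96.5 at 18°C, 37.99, 63.4 and 116 at 25°C, and 21.0, 42.3 and 54.4 at 29°C. All 18°C columns lay above all 29°C columns, and 5 of the 6 time points were lower at 29°C than at 25°C. At 18°C it exceeded its 29°C level by 0.98 ± 0.20 (adjusted p = 0.000685), and it was lower at 29°C than at 25°C, with a log2 change of -0.79 ± 0.20 (adjusted p = 0.00804). Both calls were kept without any one column, although the second reached an adjusted p of 0.0488 without 25°C ZT7. The difference in the cold comparison was 0.19 ± 0.20.

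Srp54 (CG4602; 2L, 9912907 to 9915044), an SR-like protein that binds introns, was among the rarest of the class, with 2 to 8 reads per column at 18°C. Its signals were 2.18, 5.17 and 11.5 at 18°C, 5.68, 15.4 and 24.1 at 25°C, and 6.20, 11.9 and 24.5 at 29°C, and at each of the 6 time points the 18°C column was the lowest of the 3. Srp54 was lower at 18°C than at 25°C (log2 change -1.24 ± 0.36, adjusted p = 0.0200) and than at 29°C (-1.10 ± 0.36, adjusted p = 0.0225). The first call was lost without 18°C ZT7, 18°C ZT19, 25°C ZT7 or 25°C ZT19, with an adjusted p of up to 0.0759. The second was lost without 18°C ZT7, 18°C ZT19, 29°C ZT3 or 29°C ZT23, with an adjusted p of up to 0.0613.

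B52 (CG10851; 3R, 9487022 to 9492617), the fly SRp55, had signals of 68.7, 80.4 and 94.4 in the cold, 81.8, 101 and 124 at 25°C, and 83.7, 113 and 130.2 in the warm. At every time point the 18°C column was below the 25°C column, but the ranges overlapped and the log2 change of -0.34 ± 0.14 did not pass (adjusted p = 0.134). In the full-range comparison it was -0.37 ± 0.14 (adjusted p = 0.0587). That comparison passed under 8 of 31 alternatives, among them without 18°C ZT19 (adjusted p = 0.0297), 18°C ZT23 (0.0477), 29°C ZT19 (0.0388) or 29°C ZT23 (0.0177). Its change of 0.04 ± 0.14 in the warm comparison had no stable sign, being -0.15 under library size scaling and -0.018 under TMM scaling.

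The other 3 SR genes did not pass in any comparison. The sex-determination splicing factor tra2 had signals of 14.9, 17.9 and 29.9 at 18°C, 12.7, 23.1 and 34.6 at 25°C, and 12.4, 17.6 and 22.05 at 29°C, with overlapping ranges throughout. Its log2 changes were -0.09 ± 0.25 in the cold comparison and -0.30 ± 0.25 in the warm comparison. In dm6 annotation the 3′ end of tra2 lies opposite Blos1, and without knowledge of strand their reads cannot be told apart. SC35, an SR protein needed for early spliceosome assembly, lay above its 25°C level in the cold at all 6 time points, with a log2 difference of 0.53 ± 0.20 that did not pass (adjusted p = 0.0763). For x16, an SR protein with a zinc knuckle, the 3 log2 differences lay between -0.40 and 0.34.

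**Figure D2:**
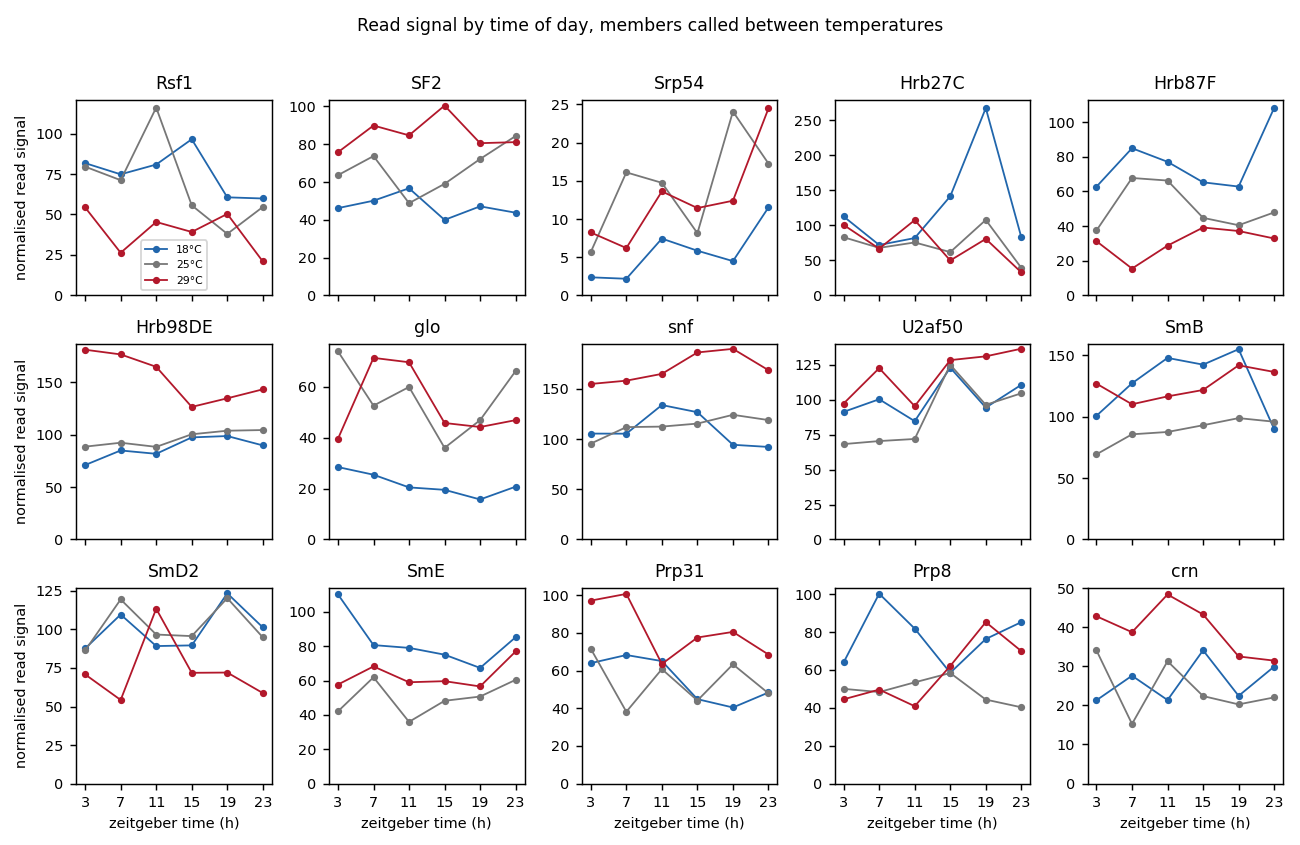
Normalised read signal (y axis, from 0) against zeitgeber time in hours (x axis) for the 15 genes that passed between temperatures, with 1 line per temperature and 1 point per column. The 18°C line of glo lies below both others at every time point, and the 29°C lines of snf and Hrb98DE lie above both others.

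The hnRNPs and related regulators held the largest changes of the 39 genes, in both directions. Of the 8 matched, 2 passed in the cold comparison, 2 in the warm comparison and 4 in the full-range comparison, and each of these counts was split evenly between higher and lower. Of all genes tested, 13.4%, 17.3% and 27.9% passed. Glorund (glo, CG6946; 3R, 7640924 to 7644793), an hnRNP F/H protein known in the fly embryo as a repressor of *nanos* mRNA, had signals of 15.7, 20.6 and 28.4 at 18°C. At 25°C they were 35.97, 56.2 and 73.9, and at 29°C 39.5, 46.3 and 71.3. No 18°C column reached any column of the other temperatures. The mean signal was 21.7 ± 4.52 (SD, n = 6) in the cold, 55.9 ± 13.7 at 25°C and 52.9 ± 13.9 in the warm. The log2 change was -1.31 ± 0.20 against 25°C (adjusted p = 4.97e-05) and -1.23 ± 0.20 against 29°C (adjusted p = 3.55e-05), and both calls held under each of 30 alternatives that tested the gene. The difference in the warm comparison was -0.08 ± 0.20 (adjusted p = 0.835).

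The related hnRNP A/B proteins Hrb87F (hrp36) and Hrb98DE (hrp38) moved in opposite directions. Hrb87F (CG12749; 3R, 9483045 to 9486241) had signals of 62.8, 71.2 and 108 at 18°C, 37.5, 46.4 and 67.8 at 25°C, and 15.5, 32.1 and 39.2 at 29°C. This order, with 18°C above 25°C and 25°C above 29°C, held at every time point. At 18°C Hrb87F exceeded its 29°C level by 1.32 ± 0.22 (adjusted p = 5.08e-05), a call kept without any one column. It was lower at 29°C than at 25°C (-0.72 ± 0.22, adjusted p = 0.0218), and this call was lost without 25°C ZT7, 25°C ZT11, 29°C ZT7 or 29°C ZT11, with an adjusted p of up to 0.113. Its difference of 0.60 ± 0.22 in the cold comparison did not pass (adjusted p = 0.0700).

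Hrb98DE (CG9983; 3R, 24425529 to 24430817) had signals of 71.1, 87.4 and 98.8 at 18°C, 88.4, 96.4 and 104.5 at 25°C, and 127, 154 and 181 at 29°C. All 29°C columns lay above all others. The log2 change was 0.67 ± 0.13 in the warm comparison (adjusted p = 0.000838) and -0.81 ± 0.13 in the full-range comparison (adjusted p = 4.88e-05), and both calls held under each of 31 alternatives. In the cold comparison it was -0.15 ± 0.13 (adjusted p = 0.529).

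Hrb27C (CG10377; 2L, 6920710 to 6926122), also called Hrp48, is known to act with Psi in repressing splicing of the P element in somatic cells. Its signals were 71.9, 97.7 and 267 at 18°C, 39.3, 71.7 and 108 at 25°C, and 32.9, 73.6 and 107 at 29°C. That 267 belonged to the 18°C ZT19 column, while the other 18°C columns reached at most 141. At 18°C Hrb27C exceeded its 25°C level by 0.70 ± 0.20 (adjusted p = 0.0239) and its 29°C level by 0.73 ± 0.20 (adjusted p = 0.00886). The first call was lost without 18°C ZT15, ZT19 or ZT23, without 25°C ZT7, ZT15, ZT19 or ZT23, or without 29°C ZT19, with an adjusted p of up to 0.103 without 18°C ZT19, where the log2 difference was 0.54. The second was lost without 29°C ZT19 (0.60, adjusted p = 0.0810). Both calls were also lost without all ZT19 columns and in fits of only the 12 columns of the 2 temperatures. Without 18°C ZT19 and ZT23 together, the limma adjusted p values were 0.296 against 25°C and 0.1725 against 29°C.

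Psi (CG8912; 2R, 12750470 to 12755143), a KH-domain protein and Hrb27C's partner, had signals of 15.7, 24.1 and 36.1 at 18°C, 15.9, 32.8 and 37.3 at 25°C, and 24.2, 31.9 and 39.9 at 29°C. These ranges overlapped in every comparison. Its log2 changes were -0.34 ± 0.25 in the cold comparison, 0.11 ± 0.25 in the warm comparison and -0.45 ± 0.25 in the full-range comparison, with adjusted p values of 0.421, 0.812 and 0.195. The second changed sign under library size scaling (-0.067) and without 25°C ZT3 (-0.062). The 3′ end of Psi lies opposite Dek in dm6 annotation, so its reads carry the same uncertainty as those of tra2.

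The remaining genes of this class, sqd, heph and mub, did not pass. The largest of their differences were those of heph, the fly polypyrimidine tract-binding protein, at 0.79 ± 0.36 in the cold comparison (adjusted p = 0.152) and 0.75 ± 0.36 in the warm comparison (adjusted p = 0.162), with only 4 to 29 reads in a column. For ps, the fly homologue of the Nova splicing regulators, the row under the older id CG16765 had signals of 224, 276 and 337 at 18°C, 222, 247 and 405 at 25°C, and 253, 401 and 516 at 29°C. At 29°C this row exceeded its 25°C level by 0.50 ± 0.13 (adjusted p = 0.00867), and it is not counted among the 39.

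**Figure D3:**
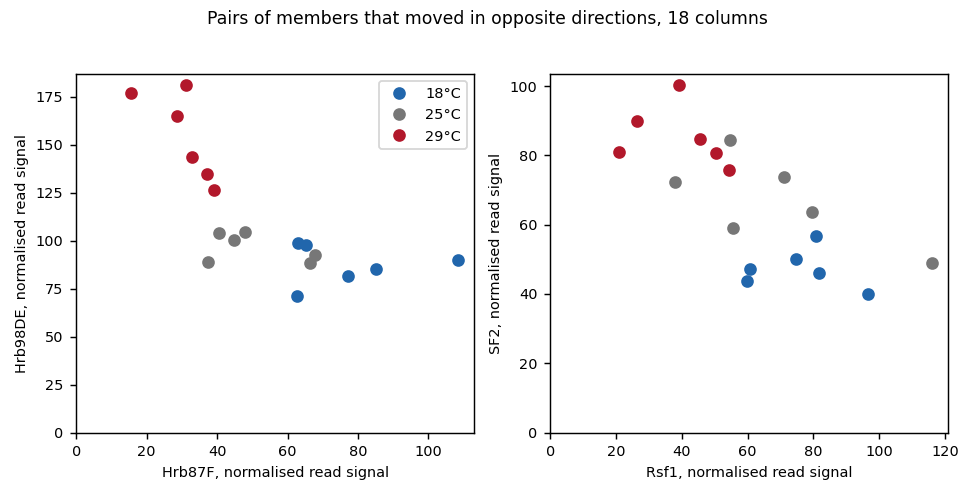
Signal of Hrb98DE against Hrb87F (left) and of SF2 against Rsf1 (right), 1 point per column and 6 columns per temperature. The 29°C columns lie towards high Hrb98DE with low Hrb87F and towards high SF2 with low Rsf1, and the 18°C columns lie on the opposite side.

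For 2 pairs of genes the within-column ratio was followed, since the depth of a column cancels in it. The pairs were picked after their changes had been seen, so the values are a description without a test. The mean log2 ratio of Hrb87F to Hrb98DE was -0.20 ± 0.35 (SD, n = 6) in the cold, -0.94 ± 0.41 at 25°C and -2.33 ± 0.63 in the warm. Every 18°C column, with -0.64 as the lowest, lay above every 29°C column, with -1.67 as the highest. The mean log2 ratio of Rsf1 to SF2 was 0.66 ± 0.33 in the cold, -0.018 ± 0.75 at 25°C and -1.17 ± 0.58 in the warm, so that the ratio of a splicing antagonist to an SR activator was 3.53-fold higher at 18°C than at 29°C. The 25°C columns overlapped both other temperatures for Rsf1 to SF2 and the 18°C columns for Hrb87F to Hrb98DE.

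Of the 3 U1 genes, only snf passed. The product of snf (CG4528; X, 5203280 to 5204533) serves in the fly as a protein of both the U1 and the U2 particle. Its signals were 92.1, 105 and 134 at 18°C, 95.4, 114 and 124 at 25°C, and 155, 167 and 189.8 at 29°C. No 29°C column reached down to any other column. The log2 change was 0.59 ± 0.12 in the warm comparison (adjusted p = 0.000964) and -0.64 ± 0.12 in the full-range comparison (adjusted p = 0.000212), and both calls held under each of 31 alternatives. The sum of the 3 U1 genes was 180 to 233 at 29°C and 128 to 165 at 25°C, most of it from snf.

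For snRNP-U1-70K (CG8749; 2L, 6969825 to 6971736), the U1 protein that SR proteins contact, the table held only 2 to 15 reads per column. Its signals were 2.37, 7.53 and 25.3 at 18°C, 3.799, 9.41 and 13.8 at 25°C, and 3.29, 8.04 and 11.4 at 29°C. Its log2 changes of -0.06 ± 0.40, -0.28 ± 0.40 and 0.21 ± 0.40 did not pass, with adjusted p values of 0.948, 0.701 and 0.733, and each changed sign without some column. Changes larger than these errors could also go undetected for this gene. The third U1 gene, snRNP-U1-C, had log2 changes between -0.11 and -0.02 with errors of 0.24.

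Of the 7 genes for the 3′ splice site and the U2 particle, none passed in the cold comparison or in the full-range comparison, and 1 passed in the warm comparison. The shares of all genes were 13.4%, 27.9% and 17.3% in this order. U2af50 (CG9998; X, 16250713 to 16253072), the large U2AF subunit that binds the polypyrimidine tract, had lowest and highest signals of 84.6 and 123 around a mean of 101 ± 14.0 (SD, n = 6) at 18°C. At 25°C they were 68.2 and 125 (mean 89.3 ± 23.04), and at 29°C 95.3 and 136 (mean 118 ± 17.8). The ranges overlapped but at all 6 time points the 29°C column was above the 25°C column. The log2 change was 0.43 ± 0.13 (adjusted p = 0.0189), and the call was lost without 25°C ZT3 (adjusted p = 0.0509) or 29°C ZT7 (adjusted p = 0.0542). It was also lost under library size scaling (limma adjusted p = 0.213), with DESeq2, without the time point factor and without 29°C ZT19 and 25°C ZT7 together. The small subunit U2af38, which reads the AG at the intron end, had a difference of 0.66 ± 0.28 in the same comparison that did not pass (adjusted p = 0.104), and its 3′ end lies opposite CG11562 in dm6 annotation. In all, 12 of the 39 genes have exons of another gene opposite their 3′ end, and SF2 and Sf3b3 have them on the same strand.

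The genes of this class for SF3A and SF3B proteins, which hold the U2 particle at the branch point, gave no call. Sf3a2 and Sf3b5, which belong to the other pathway genes described below, did pass. Sf3b1, the branch point clamp, had differences of 0.07 ± 0.15 in the cold comparison and -0.21 ± 0.15 in the warm comparison. The log2 changes of noi, Sf3a1, Sf3b2 and Sf3b3 ran from -0.69 to 0.83 over the 3 comparisons, and both ends of this range belonged to Sf3b3, which had errors of 0.51 and 0 reads in 1 column (29°C ZT3).

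The 7 Sm proteins form the ring around the small nuclear RNAs. Their median log2 change was 0.50 in the cold comparison, beside -0.01 over all genes, and 0.37 under library size scaling. 5 of the 7 had positive differences, and SmB and SmE passed, where 13.4% of all genes did. SmE (CG18591; 2L, 7884932 to 7885425) had signals of 67.3, 79.8 and 110.2 at 18°C, 35.9, 49.4 and 61.9 at 25°C, and 56.5, 59.3 and 76.9 at 29°C. All 18°C columns lay above all 25°C columns, and the 29°C columns overlapped both. SmE at 18°C exceeded its 25°C level by 0.73 ± 0.16 (adjusted p = 0.00236), and the call held under each of 31 alternatives. Its differences of 0.35 ± 0.16 in the warm comparison (adjusted p = 0.136) and 0.38 ± 0.16 in the full-range comparison (adjusted p = 0.0704) did not pass.

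SmB (CG5352; 2L, 10425483 to 10426791) was lowest at 25°C. Its signals were 89.8, 135 and 155 at 18°C, 69.3, 90.2 and 98.8 at 25°C, and 110.0, 124 and 142 at 29°C. It was higher than at 25°C both at 18°C, by 0.50 ± 0.13 (adjusted p = 0.0131), and at 29°C, by 0.51 ± 0.13 (adjusted p = 0.00921), while the difference in the full-range comparison was -0.00 ± 0.13 (adjusted p = 0.984). Both comparisons share the 25°C columns. The 18°C call was lost without 18°C ZT11 (adjusted p = 0.0501), and both were lost under library size scaling, with an adjusted p of up to 0.105 for 29°C.

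SmD2 (CG1249; 3R, 2170719 to 2171617) was the only Sm gene that fell at 29°C. Its signals were 87.7, 95.5 and 123 at 18°C, 86.4, 96.2 and 120.3 at 25°C, and 54.2, 71.3 and 113 at 29°C. That 113 belonged to ZT11, and the other 29°C columns lay at or below 72.04, under all 18°C and 25°C columns. SmD2 was lower at 29°C than at 25°C (-0.50 ± 0.16, adjusted p = 0.0260) and higher at 18°C than at 29°C (0.47 ± 0.16, adjusted p = 0.0249). The first call was lost without 25°C ZT7, ZT19 or ZT23 or 29°C ZT7, ZT19 or ZT23, with an adjusted p of up to 0.0959, and the second without 18°C ZT7, ZT19 or ZT23 or the same 3 columns at 29°C, with an adjusted p of up to 0.0954. SmD2 lies opposite CG17919 at its 3′ end in dm6 annotation.

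The other Sm genes did not pass. SmD3 had all 18°C columns (62.3 to 94.8) above all 25°C columns (40.3 to 59.7), with a log2 difference of 0.54 ± 0.19 and an adjusted p of 0.0618. An antisense RNA gene lies opposite its 3′ end in dm6 annotation. The sum of the 7 Sm genes was 508 to 558 at 18°C and 362 to 469 at 25°C, which did not overlap, and 427 to 509 at 29°C. The means were 541 ± 20.2 (SD, n = 6), 421 ± 47.4 and 468 ± 31.6. The sum of all 39 genes did not overlap between 18°C (2007.7 to 2265) and 25°C (1791 to 2007.4) either. The shares of the reads held by the 39 genes were alike there (means 0.119% and 0.118%). The part of the deposited scaling in these sums was not tested.

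**Figure D4:**
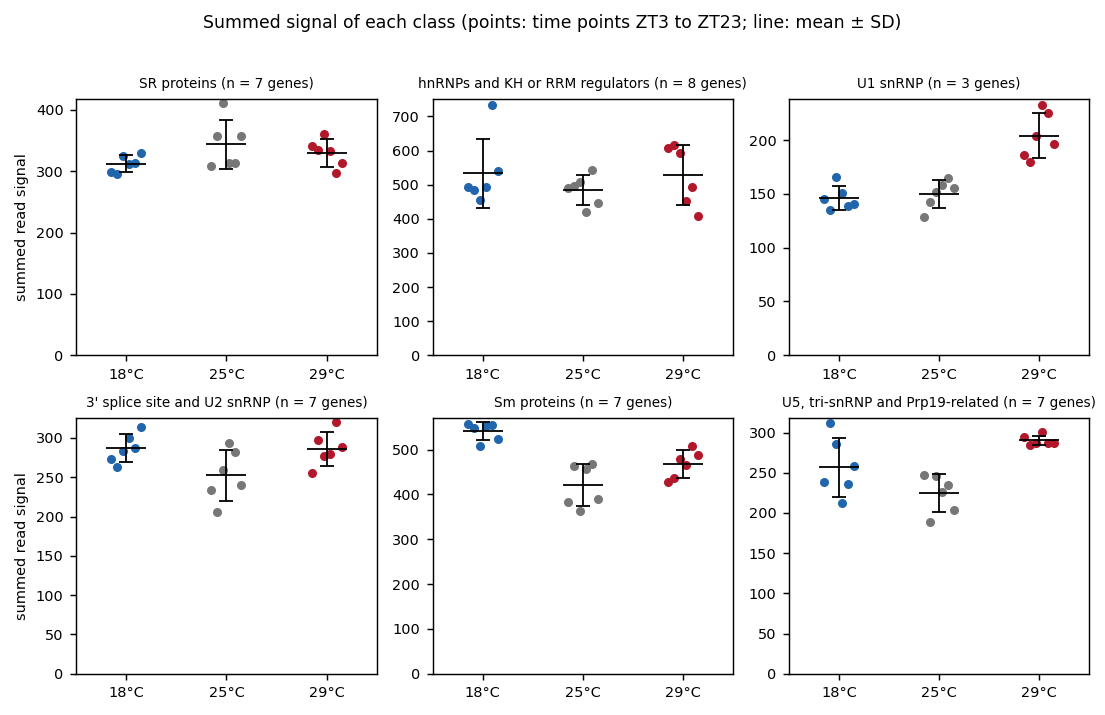
Summed normalised read signal of each class (y axis, from 0) by temperature (x axis), with 1 point per time point and the mean ± SD of 6 columns. The Sm sums at 18°C (508 to 558) lie above those at 25°C (362 to 469), and the U1 sums at 29°C (180 to 233) lie above those at both other temperatures. The sums of the U5 class at 29°C (285 to 301) also lie above those at 25°C (189 to 248).

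Among the 7 genes of the U5 particle, the tri-snRNP and the Prp19-related proteins, 1 passed in the cold comparison, 2 in the warm comparison and 1 in the full-range comparison. Of all genes tested, 13.4%, 17.3% and 27.9% did. Prp8 (CG8877; 2R, 8041756 to 8050198), the scaffold of the catalytic centre, had signals of 58.5, 79.1 and 100.2 at 18°C, 40.3, 49.2 and 58.4 at 25°C, and 40.8, 55.8 and 85.2 at 29°C. All 18°C columns lay above all 25°C columns. Prp8 at 18°C exceeded its 25°C level by 0.64 ± 0.19 (adjusted p = 0.0222), and the call was lost without 18°C ZT7 or ZT11 or 25°C ZT7, ZT19 or ZT23, with an adjusted p of up to 0.0835. Library size scaling lost it as well. Its 3′ end lies opposite CG8407 in dm6 annotation.

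Prp31 (CG6876; 3L, 15152183 to 15154238), which bridges the U4/U6 and U5 particles, had signals of 40.4, 56.2 and 68.3 at 18°C, 38.1, 54.4 and 71.6 at 25°C, and 63.5, 79.1 and 101 at 29°C. Those 29°C columns overlapped the others only at their lower end. Prp31 at 29°C exceeded its 25°C level by 0.59 ± 0.17 (adjusted p = 0.0201), and it was lower at 18°C than at 29°C (-0.56 ± 0.17, adjusted p = 0.0178). The first call was lost without 25°C ZT7 or 29°C ZT7, ZT15 or ZT19, with an adjusted p of up to 0.0761, and also under library size scaling. The second was lost without 18°C ZT19 or 29°C ZT7 or ZT19, with an adjusted p of up to 0.0666. The 3′ end of Prp31 lies opposite CG7011.

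crn (crooked neck, CG3193; X, 2141610 to 2144014), a repeat protein of the Prp19-related complex that is known to be needed in fly glia, had signals of 21.3, 25.0 and 34.1 at 18°C, 15.3, 22.2 and 34.1 at 25°C, and 31.5, 40.8 and 48.4 at 29°C. It was higher at 29°C than at 25°C at all 6 time points, by 0.72 ± 0.22 (adjusted p = 0.0267). The sum of the glial markers was lower at 29°C, and a link between both was not tested. The call was lost without 25°C ZT7, ZT15 or ZT23 or 29°C ZT7, ZT11 or ZT15, with an adjusted p of up to 0.0818. Library size scaling and DESeq2 lost it as well. The other 4 genes (Brr2, Prp3, Prp19 and l(1)10Bb) had log2 changes between -0.48 and 0.51, none of which passed. The sum of the 7 genes of this class was 285 to 301 at 29°C and 189 to 248 at 25°C, which did not overlap, and 212 to 312 at 18°C.

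The columns 29°C ZT19 and 25°C ZT7 were those in which markers of other cells stood out. With both left out, 4, 4 and 8 genes passed over the 3 comparisons in place of 7, 9 and 10. Over all genes tested the calls fell as well, to 810, 935 and 1956 in place of 1178, 1520 and 2454. Of the 26 calls, 12 were kept without any one of the 18 columns. These were glo, Hrb98DE, snf and Rsf1 in both of their comparisons, Hrb87F and SF2 in the full-range comparison, SmE in the cold comparison and SmB in the warm comparison.

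Several of the genes are neighbours on the chromosome. Hrb87F and B52 lie head to head on 3R with 780 bases between them, and x16 and Hrb27C head to head on 2L with a gap of 435 bases. Differences within a pair were not tested. In the full-range comparison Hrb87F was higher at 18°C (1.32 ± 0.22) and B52 had a difference of -0.37 ± 0.14 that did not pass. For the other pair, Hrb27C was higher at 18°C in the same comparison (0.73 ± 0.20) and x16 had a difference of the same sign, 0.34 ± 0.24, that did not pass (adjusted p = 0.319). Against 25°C, Hrb87F and B52 had differences of 0.60 ± 0.22 and -0.34 ± 0.14 at 18°C, neither of which passed, and Hrb27C and x16 of 0.70 ± 0.20 and -0.07 ± 0.24, of which that of Hrb27C passed. On 2R, Prp8, SmD3 and SmF follow each other with gaps of 6032 and 13836 bases, and their differences in the cold comparison were 0.64 ± 0.19, 0.54 ± 0.19 and 0.50 ± 0.28, of which only that of Prp8 passed.

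Over the day, none of the 39 genes passed. In the limma test of the time point factor, 0.330% of all genes passed, with 29 calls, and in that of a 24 h rhythm common to the 3 temperatures 0.466%, with 41 calls. With edgeR, 0 of the 39 passed either test, where 0.614% and 0.626% of all genes did. At an unadjusted p under 0.05, 5 of the 39 were reached by the time point factor, where 7.07% of all genes were, and 1 by the common rhythm, against 8.52%. The smallest p belonged to Hrb27C (limma adjusted p = 0.195), which had its highest column at ZT19 at 18°C and at 25°C and at ZT11 at 29°C. For U2af50, limma gave an adjusted p of 0.539 for the time point factor and of 0.501 for the common rhythm, and its 3 lowest columns at 25°C were ZT3, ZT7 and ZT11.

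Within a single temperature, an exact JTK test on 6 values cannot give a p under 0.0333, and a maximum over 1.5 times the minimum was required as well. The share of all genes that passed was 3.43% in the cold, 3.53% at 25°C and 3.59% in the warm. SmD1 and Prp31 passed at 18°C, U2af38 passed at 25°C, and no splicing gene passed at 29°C. These are 3 of 117 combinations of gene and temperature (2.56%), and no gene passed at a second temperature. The SmD1 pattern rested on 3 to 15 reads per column.

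Of the 39 genes, 7 had rows with more than 1 read profile, mostly transcripts with another 3′ end, and 5 of them (SC35, Hrb98DE, sqd, glo and SNRPG) had enough reads in a second row for a test of the ratio of that row to the kept one. The second rows of glo and SC35 held 763 and 775 reads beside 764 and 783 in the kept rows, so for these genes the rows nearly coincide and the ratio could hardly move. None of the ratios for Hrb98DE, sqd and SNRPG passed between temperatures, where 1.56%, 2.08% and 6.77% of 576 genes did in limma. For Hrb98DE the second row had means of 17.9 in the cold, 19.5 at the intermediate temperature and 29.6 in the warm, and its log2 ratio to the kept row changed by 0.03 in the warm comparison (adjusted p = 1.00).

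Other genes of the pathway were read from lists chosen by function, of which 27 spliceosome genes and 26 splicing regulators were matched and tested. In the cold comparison, 1 of the 27 and 0 of the 26 passed, beside 13.4% of all genes, the one being Sf3b5, a small SF3B protein, lower at 18°C (-0.70 ± 0.21, limma adjusted p = 0.0261). In the warm comparison, 4 spliceosome genes were higher and 0 lower, beside 10.6% and 6.71% of all genes. They were led by U4-U6-60K, a protein of the U4/U6 particle (0.98 ± 0.24, adjusted p = 0.00535), Cdc5 of the Prp19 complex (0.98 ± 0.22, adjusted p = 0.00211) and Sf3a2 (0.69 ± 0.19, adjusted p = 0.0115). Their median log2 change was 0.29, beside 0.04 for all genes and 0.11 for the 39.

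In the same comparison 3 of the 26 splicing regulators were higher and 4 lower at 29°C, against the same shares of all genes. Those higher included Saf-B and RnpS1, by 0.75 ± 0.22 (adjusted p = 0.0205) and 0.65 ± 0.22 (adjusted p = 0.0370). Those lower included Srrm1 (-1.14 ± 0.33, adjusted p = 0.0172), how (-0.89 ± 0.24, adjusted p = 0.0101) and Doa, a kinase of SR proteins (-0.74 ± 0.22, adjusted p = 0.0183). how is a KH-domain regulator known in fly glia and muscle. The glial marker sum was also lower at 29°C, and a link between both was not tested.

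In the full-range comparison, 4 of the 27 spliceosome genes were lower and 0 higher at 18°C, beside 14.6% and 13.3% of all genes, so the share that was lower was close to the background. They were led by U4-U6-60K (-1.16 ± 0.24, adjusted p = 0.000735), Sf3a2 (-1.15 ± 0.19, adjusted p = 4.76e-05) and Prp6 (-1.12 ± 0.36, adjusted p = 0.0222). Of the 26 regulators 4 were higher and 4 lower at 18°C, against the same background shares. The lower ones included rump (-0.85 ± 0.23, adjusted p = 0.00694) and tra, the female splicing switch that acts with tra2 (-0.80 ± 0.25, adjusted p = 0.0202). The higher ones were led by how (1.28 ± 0.24, adjusted p = 0.000221), Rox8 (0.86 ± 0.19, adjusted p = 0.00130) and Doa (0.57 ± 0.22, adjusted p = 0.0483).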

How the data were processed

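RNA from fly heads was profiled by 3′ RNA-seq from polyadenylated RNA, and the authors deposited normalised read signal for 21081 transcripts in 18 columns. Within a column all signal values were multiples of 1 unit, the worth of a single read, and dividing by it gave whole reads for 100% of them (tolerance 0.1 reads, largest departure 2.5e-05). The submitters' notes name Bowtie2, TopHat and Cufflinks and the build dm3, but the way a column was made from the 2 labelled libraries, and the use of strand, are not given in the sources used here. The table writes ZT19 where the labels write zt18. Coordinates are those of the table, counted from 1, and strand and overlaps came from dm6 annotation. No sequence was used.

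The members and lists were chosen with earlier results of these data known. They were read by id from fits over all genes, and members called in any comparison, with B52, Psi, SF2, tra2, snRNP-U1-70K, Prp8 and U2af50, were described in full, whereas of the other pathway genes the 3 largest calls per direction were named, except for 1 gene that is not reported here. Genes were filtered with filterByExpr (edgeR 4.0.16), and log2(signal + 1) was fitted in limma 3.58.1 (R 4.3.3; temperature and time point as factors, eBayes with trend, Benjamini-Hochberg, threshold 0.05). A fold change on this scale understates that of low genes. JTK over 6 phases of 24 h was enumerated exactly (Python 3.11.15). The edgeR quasi-likelihood test on the recovered reads gave 1173 calls in the cold, 1565 in the warm and 2297 in the full-range comparison. DESeq2 1.42.0, other scalings, filters, pseudocounts and sets of columns were alternatives, and 2 sets of columns were added after seeing the data. The limma, edgeR and JTK code was tested on simulated data.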

Additional observations from a re-analysis of the deposited data

Results flagged for a closer look

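Among 57 groups of 6 columns (19 named genes at 3 temperatures), 2 held a column whose gap to its neighbour was too large a part of the group's range by Dixon's test, where chance flags about 1 group in 20, or 2.85 here. For Hrb27C, the 18°C ZT19 column stood at 267 (119 reads) against 71.9 to 141 in the other 18°C columns. For SmD2, the 29°C ZT11 column stood at 113 (75 reads) against 54.2 to 72.04 in the other 29°C columns.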

How the results depend on the processing

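The columns were matched across temperatures by time point, which was a factor in the fit. Without that factor 6, 8 and 11 of the 39 genes passed over the 3 comparisons, in place of 7, 9 and 10. Over all genes tested, 1119, 1466 and 2410 passed, in place of 1178, 1520 and 2454. Of the 26 calls, 3 were lost (Hrb27C in the cold and full-range comparisons, U2af50 in the warm). By replicate number, no paired analysis was possible because the table holds no separate column for a labelled replicate. Of the 26 calls, all kept their direction under every alternative run, and all 26 were kept with a pseudocount of 0.1 or 5, with TMM scaling and with edgeR. DESeq2 lost 4 (SF2 in the cold, U2af50 and crn in the warm, and Srp54 in the full-range comparison). Library size scaling lost 7, each of those 7 a gene higher at 18°C or 29°C than at 25°C. They were Hrb27C, SmB and Prp8 in the cold comparison and U2af50, SmB, Prp31 and crn in the warm comparison. Leaving out 18°C ZT19 and ZT23, the columns with fewest reads (784449 and 736543), lost 8 calls. They were SF2, Srp54, Hrb27C and Prp8 in the cold comparison and Srp54, Hrb27C, SmD2 and Prp31 in the full-range comparison. In that fit 5, 9 and 8 of the 39 genes passed over the 3 comparisons, and 871, 1744 and 1879 of all genes tested. The cause of a lost call was not tested, other than that fits with fewer columns hold less data. At this depth, changes of genes with few reads can go undetected.

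In the cold comparison, 7 genes passed (4 higher, 3 lower). The count was 2 (1 and 1) without the ZT19 columns and 4 (2 higher) without 29°C ZT19 and 25°C ZT7. Over all genes tested, these fits gave 684 and 810 calls, in place of 1178. Library size scaling left 1 higher, where 450 of all genes tested were higher in place of 710. The fit of 12 columns left 1 lower, where 292 of all genes tested were lower in place of 468. At least 10 reads in every column gave 7 higher and 1 lower. That filter kept only 27 of the splicing genes and 3848 genes in all, of which 695 were higher and 396 lower. Leaving out 1 column gave 3 to 8 in all, 2 to 5 higher and 1 to 3 lower, where 891 to 1208 of all genes tested passed. In the warm comparison, 9 passed (6 higher, 3 lower). The count was 5 (2 higher) with library size scaling, 4 (3 higher, 1 lower) without 29°C ZT19 and 25°C ZT7, and 4 to 9 without 1 column (3 to 6 higher, 1 to 3 lower). Over all genes tested, 1581 passed with library size scaling and 935 without 29°C ZT19 and 25°C ZT7, in place of 1520. Without 1 column, 1203 to 1630 of them passed. In the full-range comparison, 4 were higher in the main fit and 2 with 12 columns, without the ZT19 columns or without 29°C ZT19 and 25°C ZT7. Over all genes tested, 964, 917 and 935 were higher in these fits, in place of 1166. The JTK count at 18°C fell from 2 to 1 when the maximum had to exceed the minimum 2-fold, and with library size scaling it was 0 in place of 1 at 25°C and 1 in place of 0 at 29°C.

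Only differences that did not pass changed sign. In the warm comparison, Psi was at -0.067 with library size scaling, and B52 at -0.15 with library size scaling, -0.018 with TMM, -0.024 with edgeR and -0.029 with DESeq2. Without 1 column, Psi ranged from -0.062 to 0.27, B52 from -0.0385 to 0.14 and snRNP-U1-70K from -0.48 to 0.031 there, tra2 from -0.20 to 0.027 and snRNP-U1-70K from -0.28 to 0.25 in the cold comparison, and snRNP-U1-70K from -0.005 to 0.45 in the full-range comparison, where it was -0.089 without 18°C ZT19 and ZT23.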
